A study of Mus musculus with 9 samples.

Results

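The immediate-early response genes described here are Fos, Fosb, Jun, Junb, Egr1, Egr2, Ier2, Atf3, Dusp1 and Gadd45b. They were taken by symbol, through the RefSeq accession that each array probe carries, and are 10 of 32450 genes or identifiers with a probe, of which 20435 were tested. Each of the 10 genes had 1 probe, and all 10 passed the filter on dim genes. The study measured mRNA in sorted mouse cells on 9 one-colour Agilent arrays, 3 in each of 3 groups, which the series describes as biological replicates. The first group was E13.5 primordial germ cells (PGCs), from which the germ line develops, taken as live, single, GFP-positive cells from trypsin-treated genital ridges of male embryos from MCH x C57BL6/J matings with the transgene Oct4ΔPE-GFP, which marks germ cells. The second was Max knockdown ES cells of the VV3 line, 3 days after transfection with Max siRNA by Lipofectamine RNAiMAX, sorted as live, single cells that were also positive for Vasa::Venus. The third was control ES cells of the same line, 3 days after the non-silencing AllStars siRNA, sorted as live and single only. VV3 is a male embryonic stem cell line of the 129SV strain whose Venus gene is driven by the promoter of Vasa (Ddx4), and both of its groups grew with 14% KSR, 1% FBS and LIF, so the ES cell results come from 1 line.

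Immediate-early genes are transcribed within minutes of a growth factor, stress or calcium signal, without new protein synthesis, because the factors that start them are already present. MAP kinases act on SRF and its ternary complex factors at CArG boxes and on CREB and ATF proteins at TGACG-type elements, and the products (FOS and JUN proteins, which pair as AP-1, and the EGR zinc fingers) then control later genes, while DUSP1 and GADD45 proteins act on the kinases themselves. Enzymatic dissociation and flow sorting are known to induce this programme in cells of many tissues. All 3 groups here were sorted and no unsorted sample was analysed, so the levels below are those after sorting, and its part in them was not tested. Trypsin before the sort is named in the protocol of the PGCs, and the Vasa::Venus gate in that of the knockdown cells, so these steps cannot be told apart from the cell groups.

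On each array 58.2% to 67.6% of 43020 spots were well above background and 0 were saturated. The precision of every comparison is limited by its 3 arrays a group. Max, the targeted gene, had log2 levels of 0.59, 0.83 and 1.13 in knockdown cells, against 2.74 to 2.85 in control cells (limma, adjusted p = 2.9e-05). Slide and scanning session coincided: knockdown replicates 1 and 2 with control replicates 1 and 2 on slide 1, knockdown replicate 4 with control replicate 3 on slide 2, PGC replicate 1 on slide 3, and PGC replicates 2 and 3 on slide 4. The germ cell marker Ddx4 lay at 3.81 to 4.12 in PGCs, at 2.73 to 3.07 in knockdown cells and at 0.13 to 0.44 in control cells. Its promoter drives the Venus gene used to sort the knockdown cells, so there it is no check apart from the sort. The summed signal of 8 PGC markers, Ddx4 among them, was 127.2 to 146.2, 36.5 to 40.7 and 9.91 to 10.8 in that order. Not all followed Ddx4: Dnd1 lay at 4.84 to 4.95, -0.17 to 0.50 and 0.31 to 0.62. The summed signal of 7 ES cell markers, in units of the array's 75th percentile, was 40.8 to 49.6 in PGCs, 130.1 to 138.4 in knockdown cells and 124.2 to 139.3 in control cells.

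Throughout, a log2 level is the processed signal of a gene's probe relative to the 75th percentile of the probes on that array, so a level of 0 sits at that percentile. Levels are compared between samples for 1 gene and not between genes. "Rose" and "fell" are used of genes with an adjusted p under 0.05 in limma, Benjamini-Hochberg adjusted over 20435 genes.

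Promoters of 3 members on which the comparisons below turn are shown first: Egr2, the member that passed the test after Max knockdown, and Fos and Jun, AP-1 partners of which Fos fell in PGCs and Jun did not. Each is the 250 bases before a RefSeq transcription start on GRCm38.p6, read 5′ to 3′ on the strand of the gene. Capitals mark a CArG box or TGACG on either strand (CGTCA on the strand shown). Egr2 lies at chr10:67537619-67537868 on the plus strand, Fos at chr12:85473640-85473889 on the plus strand and Jun at chr4:95052223-95052472 on the minus strand.
Egr2: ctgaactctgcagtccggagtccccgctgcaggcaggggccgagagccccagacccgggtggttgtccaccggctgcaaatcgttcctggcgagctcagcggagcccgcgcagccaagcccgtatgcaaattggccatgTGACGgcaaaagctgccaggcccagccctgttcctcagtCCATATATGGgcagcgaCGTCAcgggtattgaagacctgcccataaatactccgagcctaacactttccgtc
Fos: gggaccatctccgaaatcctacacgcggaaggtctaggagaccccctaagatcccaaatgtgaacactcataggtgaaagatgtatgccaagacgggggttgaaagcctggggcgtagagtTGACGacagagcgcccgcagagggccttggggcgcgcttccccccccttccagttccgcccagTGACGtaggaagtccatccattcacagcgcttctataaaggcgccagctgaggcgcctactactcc
Jun: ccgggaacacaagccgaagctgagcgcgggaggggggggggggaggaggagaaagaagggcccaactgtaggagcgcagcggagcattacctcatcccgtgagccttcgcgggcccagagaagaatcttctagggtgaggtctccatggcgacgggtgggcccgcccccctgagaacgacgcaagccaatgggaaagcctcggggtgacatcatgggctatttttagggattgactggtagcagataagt

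The Egr2 window held the CArG box CCATATATGG at positions -72 to -63 from the start, with TGACG on either side of it. The Fos window held TGACG beginning at positions -129 and -66, and no CArG box. Bases outside the windows were not searched for any gene, so a CArG box of Fos further upstream would have been missed. The Jun window held none of the letters searched. Only exact letters were counted, so the near match TGACATCA in the Jun window was not. Promoter windows were found for 8 of the 10 members, with 12 windows in all because Egr2 has several annotated starts. Egr1 and Ier2 had no window and were not searched. A CArG box stood in 4 of the 12 windows, all of them of Egr2 and 3 of them overlapping, against 1.47% of 32841 RefSeq windows of the same length. TGACG stood in 8 of the 12, against 17.8% of all windows. These were the same 3 overlapping windows of Egr2 and those of Atf3, Dusp1, Fos, Fosb and Junb. The longer palindrome TGACGTCA, which contains it, was in 1, that of Dusp1, against 1.55%. The AP-1 site TGANTCA was in 0 of the 12, against 6.75%. A match is a description of letters, and no binding was measured here.

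After Max knockdown, 1 of the 10 immediate-early genes fell and 0 rose. The gene that fell was Egr2, which dropped 4.08-fold. Over all genes tested, 22.0% fell and 18.2% rose, so 1 in 10 is no larger a share than the background. Egr1, from the same zinc finger family, was not lowered: its 3 knockdown arrays lay above all 3 control arrays. The median log2 difference of the members was 0.00, against -0.07 over all genes tested.

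**Figure D1:**
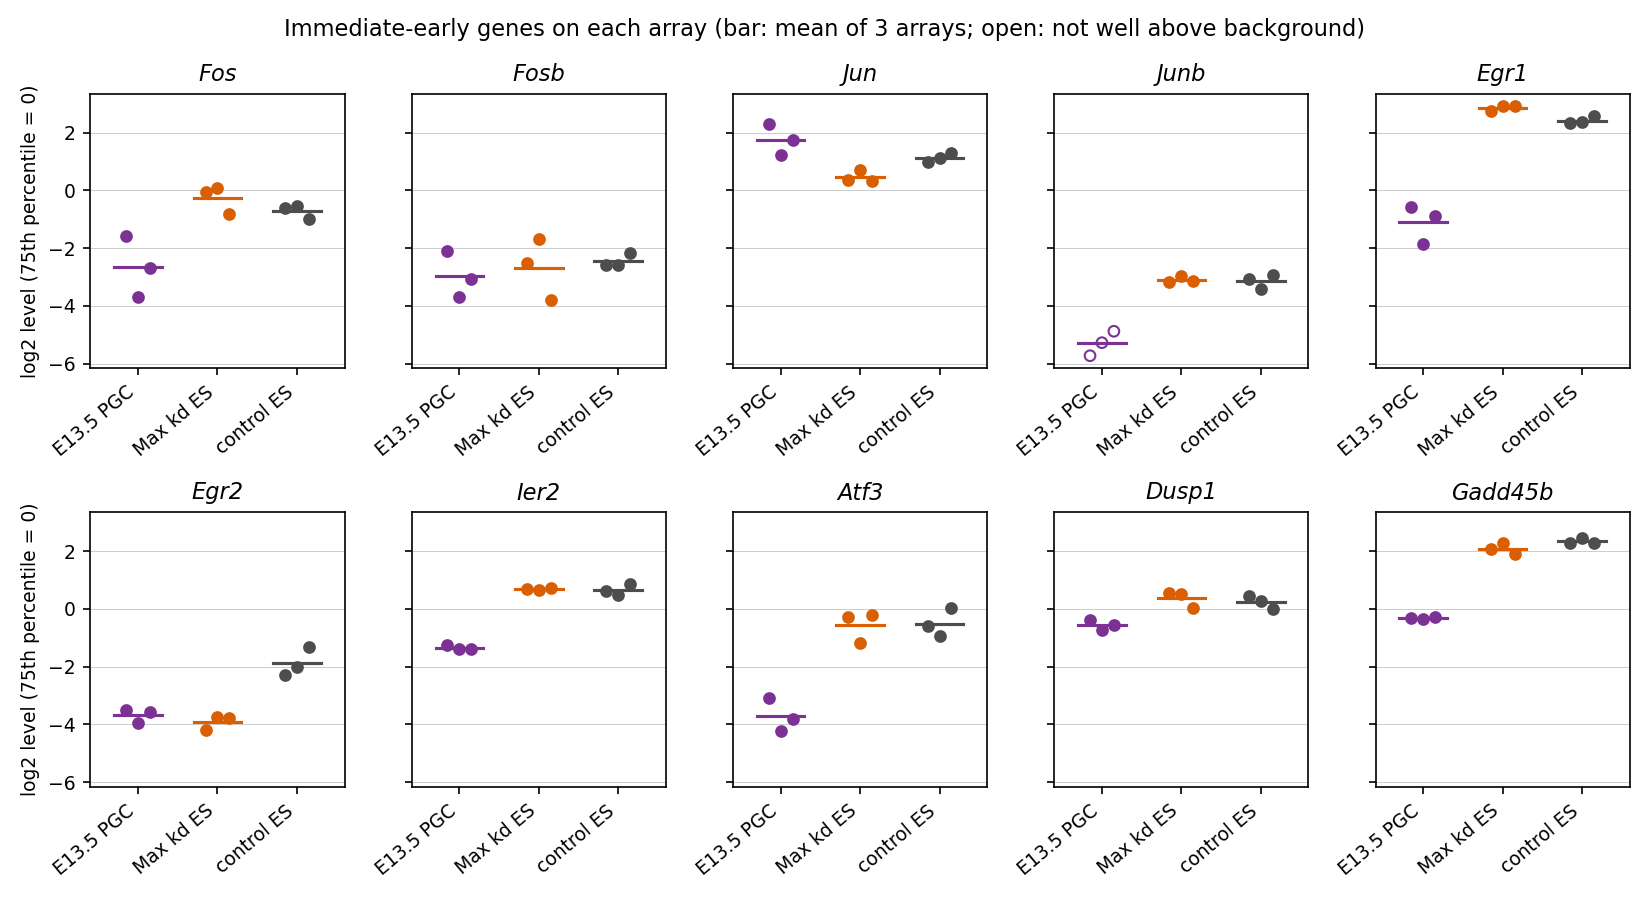
Log2 level of each of the 10 immediate-early genes on every array (y axis, relative to the 75th percentile of the array), with E13.5 PGCs to the left, Max knockdown ES cells in the middle and control ES cells to the right; each point is 1 array and each bar the mean of 3, and an open point is not well above background. Junb is open on all 3 PGC arrays, and Egr2 in knockdown cells (-4.17 to -3.75) lies below control cells (-2.27 to -1.33); heights are not comparable between genes.

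EGR proteins are zinc finger transcription factors that carry growth and stress signals to later genes. Egr2, also known as Krox20 and best known from hindbrain and Schwann cell development, had log2 levels of -4.17, -3.75 and -3.79 in knockdown cells and -2.27, -2.03 and -1.33 in control cells. The groups did not overlap. The difference was -2.03 on the log2 scale (SE 0.25, limma, adjusted p = 0.00042), and it lay between -2.23 and -1.75 when each ES cell array was left out in turn. The call was lost under normexp background correction (-0.39, limma, adjusted p = 0.61), which a few spots far below background on knockdown replicates 1 and 2 disturbed, and held without those spots (-1.27, limma, adjusted p = 0.00032). Egr1, which serum and growth factors induce through SRF, had levels of 2.74, 2.92 and 2.90 in knockdown cells and 2.34, 2.36 and 2.56 in control cells. These arrays did not overlap either, and the difference of 0.44 (SE 0.28) did not pass the test over 9 arrays (limma, adjusted p = 0.26). Non-overlap of that kind is common here: 23.4% of all genes tested had knockdown arrays all above the controls and 30.7% all below.

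The AP-1 genes did not pass the test in the knockdown. Jun, the DNA-binding partner shared by FOS proteins, had levels of 0.35, 0.72 and 0.32 in knockdown cells, against 0.97, 1.13 and 1.29 in control cells. Every knockdown array was below every control array, and the difference was -0.67 (SE 0.24, limma, adjusted p = 0.059). Fos had levels of -0.06, 0.08 and -0.81 in knockdown cells and -0.61, -0.56 and -0.98 in control cells. Knockdown replicate 4 lay within the control range, and the difference of 0.45 (SE 0.47) had an adjusted p of 0.49 in limma. Fosb, a close relative of Fos, had levels of -2.51, -1.69 and -3.80 in knockdown cells, around control levels of -2.58, -2.60 and -2.16. Junb, which also pairs with FOS proteins, had levels of -3.17 to -2.97 in knockdown cells and -3.40 to -2.92 in control cells, a difference of 0.04 (SE 0.21).

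The remaining 4 members differed by at most 0.25 on the log2 scale between knockdown and control cells, in size. Ier2, a short nuclear protein induced by serum, had levels of 0.67 to 0.72 in knockdown cells and 0.47 to 0.87 in control cells. Atf3, a stress-induced bZIP factor that often acts as a repressor, had levels of -1.17 to -0.19 in knockdown cells and -0.94 to 0.03 in control cells. Dusp1, a nuclear phosphatase that switches off MAP kinases, had levels of 0.03 to 0.55 in knockdown cells and 0.00 to 0.45 in control cells. Gadd45b, a stress sensor that binds an upstream kinase of the p38 and JNK pathways, had levels of 1.89 to 2.29 in knockdown cells and 2.26 to 2.47 in control cells. All 4 overlapped between the groups. Their adjusted p-values in limma lay between 0.12 for Gadd45b and 0.95 for Atf3.

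Because slides 1 and 2 each held both ES cell groups, the knockdown difference was also taken within slides, as drawn in the plot of both slides. With slide as a block over the 6 ES cell arrays, 4 members passed in limma: Egr2 and Jun fell, and Egr1 and Fos rose. Of all 20435 genes tested, 9545 passed, with 4232 higher and 5313 lower. In either direction, 2 in 10 is no larger a share than that background. Egr2 had the same difference of -2.03 (limma, adjusted p = 0.0014), and was -1.81 within slide 1 and -2.47 within slide 2. Jun was -0.67 with the block (SE 0.15, limma, adjusted p = 0.018), -0.52 within slide 1 and -0.96 within slide 2. Egr1 was 0.44 with the block (SE 0.08, limma, adjusted p = 0.01), with 0.48 and 0.35 within slides 1 and 2. Fos was 0.45 with the block (SE 0.11, limma, adjusted p = 0.025), with 0.59 and 0.16 within slides 1 and 2. These 4 genes, Dusp1 (0.17 and 0.03) and Gadd45b (-0.18 and -0.39) each kept 1 direction on both slides. The sign differed between slides for Fosb (0.49 and -1.64), Junb (0.17 and -0.21), Ier2 (0.13 and -0.15) and Atf3 (0.055 and -0.22). The block estimates the spread from the 6 ES cell arrays alone, without that of the PGCs.

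**Figure D2:**
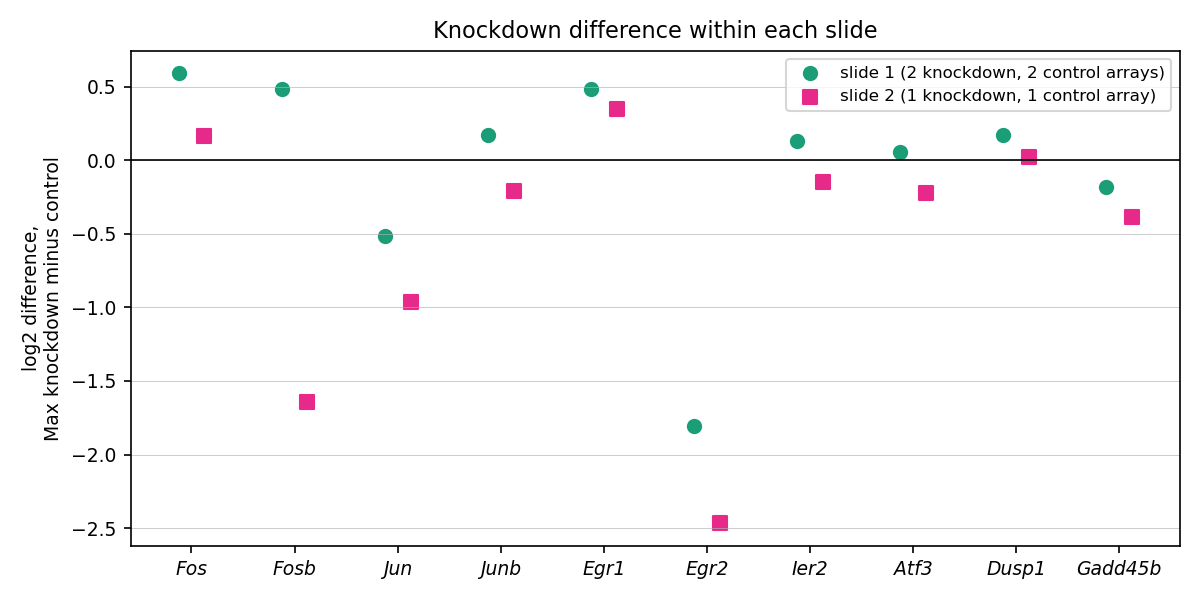
Log2 difference of Max knockdown ES cells minus control ES cells for each immediate-early gene (y axis), taken within slide 1 (circles, 2 arrays a group) and within slide 2 (squares, 1 array a group). Egr2 lies furthest below 0 on both slides, at -1.81 and -2.47, while Fosb changes sign, with 0.49 on slide 1 and -1.64 on slide 2.

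In E13.5 PGCs 8 of the 10 members fell relative to control ES cells, 1 rose and 1 did not pass the test. Junb, among those 8, was not well above background on any PGC array and passed the filter through the ES cells. With a filter on all 9 arrays, which left Junb out, 7 of 9 members fell and 1 rose. Of the 16199 genes kept by that filter, 4966 fell and 7590 rose. Egr1 fell 11.5-fold, Atf3 9.17-fold and Gadd45b 6.29-fold; with normexp, with or without the disturbed spots, these were -3.29, -2.01 and -2.53 on the log2 scale, with Atf3 the smallest of the 3. Of all genes tested, 32.4% fell and 43.2% rose. The median log2 difference of the members was -1.97, against 0.18 over all genes tested. Jun rose 1.55-fold with the array percentile as the scale. When arrays were scaled on the spike-in RNAs it had the opposite sign and did not pass the test (log2 -0.33, SE 0.51, limma, adjusted p = 0.63). That scaling moved the median of all genes to -0.78, and the 8 members that fell stayed past the threshold under it with Fosb as a ninth. Its SE of 0.51 was the same for every member, a shared value and not the spread of Jun or Fosb. In bulk samples of this kind fewer cells with a transcript and less transcript per cell cannot be told apart.

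**Figure D3:**
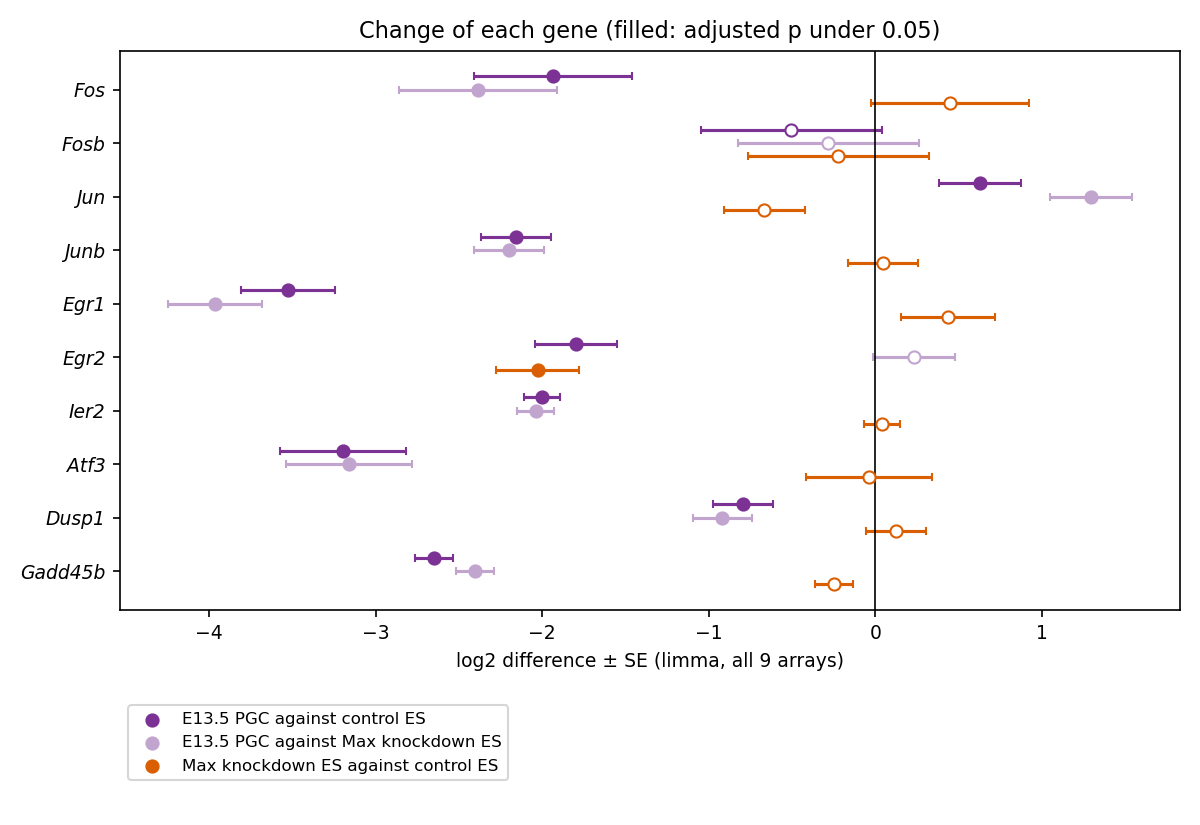
Log2 difference of each immediate-early gene (x axis, points with bars of 1 standard error, filled at an adjusted p under 0.05, Junb in PGCs at its fitted value) for E13.5 PGCs minus control ES cells, E13.5 PGCs minus Max knockdown ES cells, and Max knockdown minus control ES cells. Egr1 lies at -3.53 and -3.96 in the PGC comparisons, against 0.44 in the knockdown. Jun is the member above 0 in both PGC comparisons on this scale. It was at -0.33 (SE 0.51, the same for every member) against control cells when arrays are scaled on spike-ins.

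Among the AP-1 genes, Fos had log2 levels of -1.57, -3.67 and -2.70 in PGCs, against -0.61, -0.56 and -0.98 in control ES cells. All 3 PGC arrays were lower, but they spread over 2.11 log2 units, and the difference was -1.93 (SE 0.47, limma, adjusted p = 0.0052). Junb was not well above background on any PGC array and had levels of -3.08, -3.40 and -2.92 in control cells. Its fitted difference, from those dim PGC values, was -2.155 (SE 0.21, limma, adjusted p = 1.9e-05). With the dimmest signal measured above background in place of its dim values, Junb was at least 4.06-fold lower in PGCs. That bound belongs to the processed signal: with normexp and its offset of 50, the difference of Junb was -0.62 with or without the disturbed spots described above. Fosb, at -2.09, -3.69 and -3.07 in PGCs and -2.58, -2.60 and -2.16 in control cells, did not pass the test (difference -0.50, SE 0.54, limma, adjusted p = 0.42). Jun had levels of 2.29, 1.24 and 1.75 in PGCs and 0.97, 1.13 and 1.29 in control cells. PGC replicate 2 lay within the control range, and the difference was 0.63 (SE 0.24, limma, adjusted p = 0.042). Of 19 alternatives for Jun, 7 kept that call, 11 lost it and 1, spike-in scaling, turned the sign (-0.33, SE 0.51, limma, adjusted p = 0.63). It was lost with slide as a random block (0.67, limma, adjusted p = 0.055), under quantile normalization (0.51, limma, adjusted p = 0.087), and without any 1 control array or PGC replicate 1 or 3 (0.37 to 0.71, limma, adjusted p = 0.053 to 0.12).

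Both EGR genes fell in PGCs. Egr1 had levels of -0.57, -1.86 and -0.90 in PGCs, against 2.34, 2.36 and 2.56 in control cells. Every PGC array lay far below every control array, and the difference was -3.53 (SE 0.28, limma, adjusted p = 5.5e-06). Egr2 had levels of -3.50, -3.95 and -3.57 in PGCs, a difference of -1.80 from control cells (SE 0.25, limma, adjusted p = 0.00017). The PGC and knockdown comparisons share the control arrays, and Egr2 is the member that fell in both.

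Ier2 and Atf3, which follow next, showed unlike spreads. Ier2 lay at -1.25, -1.38 and -1.40 in PGCs and at 0.64, 0.47 and 0.87 in control cells, a fall (log2 -2.00, SE 0.11, limma, adjusted p = 5.6e-07). Atf3 lay at -3.08, -4.22 and -3.81 in PGCs and at -0.61, -0.94 and 0.03 in control cells (log2 -3.20, SE 0.38, limma, adjusted p = 6.6e-05). Neither gene's groups overlapped. The feedback genes fell by very different amounts. Gadd45b lay within 0.057 log2 units on the 3 PGC arrays (-0.31, -0.35 and -0.29), below control levels of 2.26, 2.47 and 2.27 (log2 -2.65, SE 0.11, limma, adjusted p = 1.5e-07). Dusp1 lay at -0.37, -0.75 and -0.55 in PGCs and at 0.45, 0.26 and 0.00 in control cells, a 1.73-fold fall (limma, adjusted p = 0.0032). With slide as a random block over the 9 arrays, all 8 falls stayed past the threshold. Under normexp those of Junb, Egr2 and Dusp1 did not, and without the disturbed spots all 8 did.

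Arrays of 8 members did not overlap between PGCs and control cells, all lower in PGCs, where 33.5% of all genes tested were wholly lower and 45.0% wholly higher. Markers of other cells in the genital ridge were above background in the PGC arrays, and many of them also in the ES cell arrays. The summed signal of 14 gonadal somatic markers, in units of the array's 75th percentile, was 5.71 to 10.4 in PGCs and 4.65 to 5.27 in control ES cells. On all 3 PGC arrays 10 of the 14 were well above background, and 9 of the 14 were so on all 3 control arrays. At background on every array of the group were 0 in PGCs and 5 in control cells. Amh, a Sertoli cell hormone, was above background on 3 of 3 PGC arrays (-3.39 to -2.37) and on 0 ES cell arrays. Other markers of this list went the other way. Wt1 lay at -0.39 to 0.30 in PGCs and 0.60 to 1.37 in control cells, and Pdgfra at -5.25 to -4.50 and -2.64 to -1.76. The 10 blood and endothelial markers summed to 3.38 to 4.34 in PGCs and 2.56 to 3.54 in control cells. Lyz2, Tek, Tie1 and Emcn were not above background on any PGC array, and Ptprc, Lyz2, Cdh5 and Emcn on any control array. Hba-a1, a haemoglobin gene, was higher in PGCs, at -1.15 to 0.47 against -4.36 to -3.99 in control cells. Ptprc was above background on 2 PGC arrays. The 10 fibroblast markers summed to 49.9 to 51.7 in PGCs and 49.8 to 50.8 in control cells, sums carried mostly by Fn1 (5.57 to 5.64 and 5.19 to 5.21 on the log2 scale), while Vim lay at -0.93 to -0.01 in PGCs and 3.17 to 3.36 in control cells and Pdgfrb was not above background on any PGC array. The part of these cells in the members' levels was not tested.

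Set against Max knockdown cells, PGCs were lower for 7 members, higher for Jun and not past the threshold for Fosb and Egr2, with 31.4% of all genes lower and 44.9% higher. Egr1 differed most, at -3.96 on the log2 scale (15.6-fold lower, limma, adjusted p = 2.9e-06). Fos was -2.38 (limma, adjusted p = 0.0016), Atf3 -3.16, Gadd45b -2.40, Ier2 -2.04 and Dusp1 -0.92, and Junb was at least 4.19-fold lower. Jun lay 1.29 higher in PGCs than in knockdown cells (2.45-fold, limma, adjusted p = 0.0012), and 0.31 higher and not past the threshold under spike-in scaling (limma, adjusted p = 0.66). For Egr2 the difference between PGCs and knockdown cells was 0.23 (limma, adjusted p = 0.42), with PGC levels of -3.95 to -3.50 and knockdown levels of -4.17 to -3.75. From high to low, the order of the group means was control, PGC, knockdown for Egr2, of which the last pair did not differ beyond its spread. For Jun it was PGC, control, knockdown. For Egr1 and Fos it was knockdown, control, PGC. In none of these 3 did the ES cell groups differ past the threshold in the fit of 9 arrays; the same held for Junb, Ier2, Atf3, Dusp1 and Gadd45b, whose PGC mean was the lowest of the 3 groups.

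Replicates of 1 group differed more for some members than for most genes. The pooled standard deviation within groups was 0.78 for Fosb, 0.68 for Fos and 0.54 for Atf3 on the log2 scale, larger than that of 98.9%, 98.0% and 95.04% of the genes tested, whose median was 0.17. Egr1 at 0.40, Egr2 at 0.34, Jun at 0.34, Junb at 0.29 and Dusp1 at 0.24 were also above that median. Gadd45b at 0.13 and Ier2 at 0.13 were below it. The spread was not equal over the groups. Fos had a standard deviation of 1.05 in PGCs, 0.48 in knockdown cells and 0.23 in control cells, and Egr1 had 0.67 in PGCs, 0.10 in knockdown cells and 0.12 in control cells. Fosb spread most in knockdown cells, with 1.06.

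**Figure D4:**
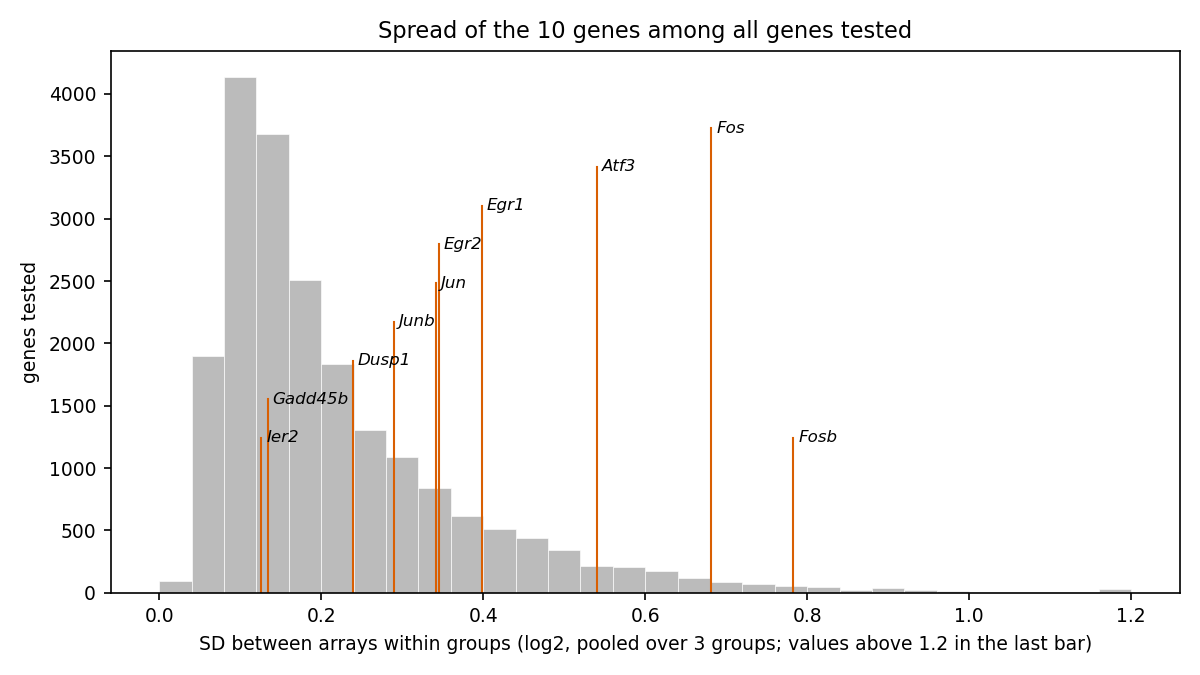
Distribution of the pooled within-group standard deviation of log2 levels over all genes tested (x axis, in log2 units; y axis, number of genes; the last bar also holds larger values), with the 10 immediate-early genes marked by lines whose heights carry no value. Fosb (0.78), Fos (0.68) and Atf3 (0.54) lie in the right tail, and Ier2 and Gadd45b (both 0.13) lie below the median of 0.17.

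Within the PGCs, replicate 1 was on slide 3 and replicates 2 and 3 on slide 4, and that pair also differed from each other, as with Egr1 at -1.86 in replicate 2 and -0.90 in replicate 3. Replicate 1 was higher than the mean of the other two for 9 of the 10 members, where 42.9% of all genes tested were higher. It exceeded that mean by over 0.5 log2 units for 5 members, where 3.92% of all genes did. These 5 were Fos at 1.62, Fosb at 1.29, Atf3 at 0.94, Egr1 at 0.81 and Jun at 0.79. Dusp1 (0.28), Egr2 (0.27), Ier2 (0.14) and Gadd45b (0.01) were nearer to 0, and Junb (-0.65), not above background on any PGC array, was lower. Gonadal somatic markers summed to 8.47 in replicate 1, 10.4 in replicate 2 and 5.71 in replicate 3. Blood and endothelial markers summed to 4.34, 4.27 and 3.38 in that order. The part of such cells in the levels of replicate 1 was not tested. Slide, scanning session and animal cannot be told apart for this array. Without replicate 1, the difference of Fos from control cells was -2.47 (limma, adjusted p = 0.00044) and that of Egr1 was -3.80. Without replicate 2, Fos was -1.42 (limma, adjusted p = 0.011) and Egr1 was -3.15.

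Genes related to the members by pathway were taken from lists. In knockdown cells 2 of 15 other AP-1 and ATF factors rose and 3 fell, with a median log2 difference of -0.06, where 18.2% of all genes tested rose and 22.0% fell. Maff, a small MAF protein, fell by 1.01 (limma, adjusted p = 0.0058). Of 5 other EGR and NR4A factors and their corepressors, 2 rose and 1 fell. Egr4 rose by 1.07 (limma, adjusted p = 0.0068) and Nab2, a corepressor of EGR proteins, by 0.84, while Nr4a1, an orphan nuclear receptor of the immediate-early class, fell by 0.48. Of 33 other immediate-early and dissociation genes, 8 rose and 13 fell, with a median of -0.02. Myc rose by 1.33 (limma, adjusted p = 0.00068), Klf4 by 0.92 and Zfp36l1, which destabilises AU-rich mRNAs, by 0.66, whereas Plk3 fell by 0.89 and Cebpd fell by 1.01.

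Further down the pathway, 5 of 15 dual specificity phosphatases and ERK feedback genes fell in knockdown cells and 2 rose. Dusp4, an ERK phosphatase, fell by 1.01, and Spry1, a receptor signalling inhibitor, fell by 0.76. Of 24 genes of the SRF, ternary complex factor and kinase inputs, 4 rose and 5 fell, with a median of -0.03. Mapk3, which encodes ERK1, fell by 0.76 (limma, adjusted p = 0.00076) and Mapk14, which encodes p38 alpha, rose by 0.55. Srf itself fell by 0.85 by its brighter probe (limma, adjusted p = 0.0051) and lay at -0.41 by its other probe. Of 13 cytoskeletal genes that SRF is known to activate, 10 fell and 0 rose, with a median of -1.14. Acta2 fell by 3.84 and Tpm2 fell by 1.37. Ankrd1, not above background on any knockdown array, was at least 3.64-fold lower. Its fitted difference, from those dim values, was -4.05 (limma, adjusted p = 3.9e-05). Of 10 GADD45 and integrated stress response genes, 3 fell and 0 rose, among them Gadd45g, a paralogue of Gadd45b, which fell by 0.42. Under spike-in scaling 3 of the 13 cytoskeletal targets fell in knockdown cells, and 0 genes of the other lists of related genes passed the test in either direction. Of all 20435 genes, 291 fell and 731 rose under that scaling. The differences themselves moved little while their errors grew. Limma gave all members and Max the same SE of 0.51 there, a shared value and not the spread of each gene. The cytoskeletal median was -1.11, and Jun was -0.65 with that shared SE, against its SE of 0.24 on the percentile scale. Against the spike-ins, the percentile stood at -1.63 to -1.44 on slide 1 and -2.66 to -2.50 on slide 2, and both slides held both groups.

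**Figure D5:**
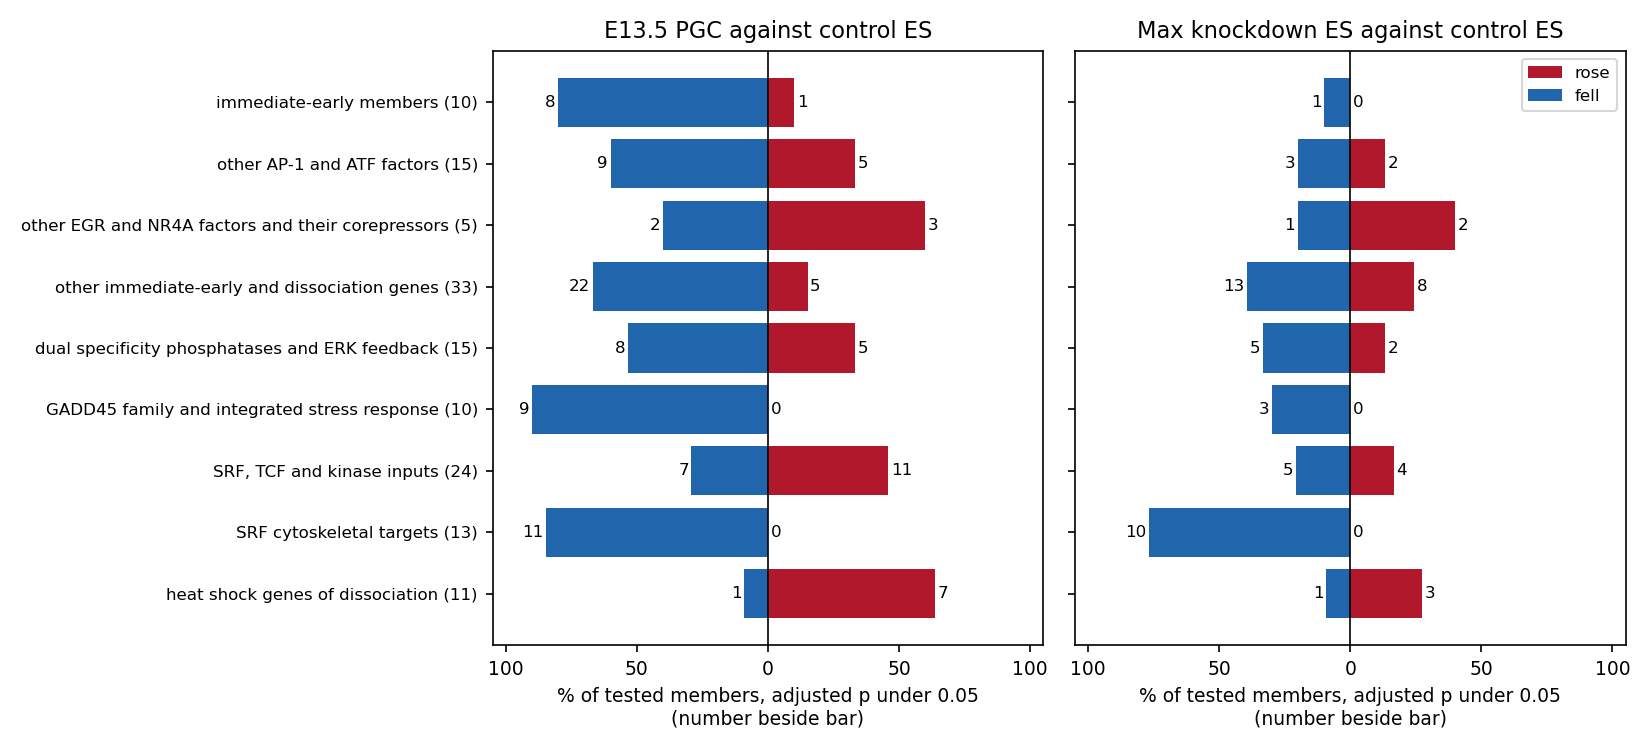
Share of each gene list (x axis, percent of its tested members, numbers beside the bars) that rose (right) or fell (left) at an adjusted p under 0.05, with E13.5 PGCs against control ES cells in the left panel and Max knockdown against control ES cells in the right panel. In PGCs 8 of 10 immediate-early genes and 22 of 33 other immediate-early and dissociation genes fell while Jun and 7 of 11 heat shock genes rose. Under spike-in scaling, where 1161 of all 20435 genes rose, 1 of 11 heat shock genes rose and Jun did not.

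In PGCs, where 32.4% of all genes tested fell and 43.2% rose, the lists are described by their counts, and differences between lists were not tested. Of the 33 other immediate-early and dissociation genes 22 fell and 5 rose, with a median log2 difference of -1.23. Socs3, a feedback inhibitor of LIF and other cytokine signals, fell by 7.46 (limma, adjusted p = 1.3e-07), Klf4 fell by 3.05, Mcl1, an anti-apoptotic BCL2 relative, fell by 2.46, and Zfp36l2 rose by 1.14. Of 10 GADD45 and integrated stress response genes 9 fell, among them Gadd45a (-4.20), Gadd45g (-1.92) and Chac1, a glutathione-degrading target of ATF4 (-6.22). Of 15 other AP-1 and ATF factors 9 fell and 5 rose. Jdp2, a repressor of AP-1, fell by 4.49 (limma, adjusted p = 1.1e-06) and was above background on 2 of 3 PGC arrays, Maff fell by 2.63, and Batf3 rose by 2.78.

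The EGR group held the exception. Egr4 lay at 3.00 to 3.50 in PGCs, against -3.48 to -3.05 in knockdown cells and -4.78 to -3.91 in control cells, with no overlap between the groups. It rose by 7.64 on the log2 scale in PGCs over control cells (SE 0.23, limma, adjusted p = 2.9e-08), while its relatives Egr1 and Egr2 fell. EGR4 is known in mouse for its role in the male germ line. The EGR corepressor genes Nab2 and Nab1 rose by 3.31 and 1.82 in PGCs. Of the 15 phosphatase and ERK feedback genes 8 fell and 5 rose: Dusp6, an ERK phosphatase, fell by 1.59 and Spry2 fell by 2.35, whereas Dusp4 rose by 2.80 and Dusp14 by 1.96. Of the 24 kinase and SRF inputs 11 rose and 7 fell on the percentile scale, with a list median of 0.20. On the spike-in scale 0 rose and 8 fell, with a list median of -0.76. There 1161 of all 20435 genes rose and 7591 fell, with a median of -0.78. Map2k1, which encodes the ERK kinase MEK1, fell by 1.47. Of the 13 SRF cytoskeletal targets 11 fell and 0 rose, with Tagln at -5.97 and Cnn1, not above background on any PGC array, at least 87.6-fold lower. Under spike-in scaling the rises of Nab1 (0.86), Dusp14 (1.00) and Zfp36l2 (0.18) in PGCs did not pass the test.

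Heat shock genes are a different class that dissociation is known to induce. In PGCs 7 of 11 rose, against 43.2% of all genes, and 1 fell on the percentile scale, with a list median of 0.40. Dnajb1, an HSP40 co-chaperone, was at 2.19 and Hspb1 at -5.58 (limma, adjusted p = 1.8e-08). On the spike-in scale 1 rose and 1 fell, with a list median of -0.56. There 1161 of all 20435 genes rose, and the median of all genes was -0.78, against 0.18 on the percentile scale. In knockdown cells 3 of 11 rose and 1 fell, with Hsph1 at 0.58 and Hspd1 at -0.46.

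Profiles most like those of Fos, Egr1 and Jun over the 9 arrays were ranked by the root mean square distance of log2 levels after each gene was centred on its own mean, among 14436 tested symbols. Nearest to Fos were Ldc1 (0.27), Bach2 (0.40) and H2ac8 (0.41). Nearest to Egr1 were H1f0 (0.18), Rarb (0.20) and Elovl2 (0.21), and nearest to Jun were Pnrc1 (0.15), Plat (0.17) and Marveld2 (0.18). The genes nearest to Fos and Egr1 had PGC means of -6.50 to -5.35. That is below Junb (-5.29), which was not above background on any PGC array, so their PGC levels may lie near background. No other member was among the 3 nearest to Fos, Egr1 or Jun. Ier2 was the member nearest to Fos, at rank 165 with a distance of 0.59, and Atf3 the member nearest to Egr1, at rank 136 with 0.49. Of the other AP-1 members, Junb stood at rank 809 from Fos (0.72), Fosb at rank 2887 (0.96) and Jun at rank 10953 (1.58).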

How the data were processed

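Gene expression was measured in 9 sorted mouse cell samples on Agilent one-colour arrays. Per the file headers, the scanner files were made with Agilent Feature Extraction 10.7.3.1, which gives for each spot a processed signal intensity after background subtraction. Per the labels' protocols, Cy3-labelled cRNA was made from 100 ng of total RNA with spike-in RNAs. The series' deposited value table holds log2 values that followed the scanner values after centring of each gene (r of at least 0.999993 on every array, column medians -0.12 to 0.39); the authors' baseline for that centring is unknown here, and the table served as an alternative.

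From the intensities, control spots and 65 of 39429 probes with an outlier flag were left out, repeated spots were averaged, and log2 of the processed signal minus the array's 75th percentile was taken. Symbols came from RefSeq accessions (26012 of 39364 probes matched). A gene was represented by its brightest probe and tested if 1 or more groups had that probe well above background on each of their arrays. The 3 groups were fitted together in limma 3.58.1 (R 4.3.3) with Benjamini-Hochberg adjustment at 0.05, checked on simulated data. An exact permutation test of 3 arrays against 3 cannot give a p below 0.1. Where no array of a group had a probe above background, the fold is a bound against the dimmest signal measured above background on each array.

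The members and lists were chosen with earlier results of these data known. Named genes were all members, the Max control, profile neighbours of Fos, Egr1 and Jun, and, among the 3 smallest adjusted p-values of each list and direction, those whose probes or role could be stated. Lists covered AP-1, EGR, other immediate-early, ERK feedback, GADD45, SRF and heat shock genes. Alternatives were quantile and spike-in scaling, normexp background correction (on median signals, as the files used hold no mean signal), 2 other filters, 2 other probe rules, an intensity trend, fits of 2 groups, slide and replicate blocks, and leaving out each array.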

Additional observations from a re-analysis of the deposited data

How the results depend on the processing

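The directions of all 8 falls in PGCs against control cells held under every alternative run, as did that of Egr2 in the knockdown. Of the members' values, 173 of 189 alternatives in PGCs against control cells, 182 of 189 in PGCs against knockdown cells and 174 of 209 in the knockdown kept direction and side of the threshold; where they did not, the cause was not tested unless stated. Scaling on spike-ins (6 of 10 probes), against which the array percentile stood at -3.22 to -3.05 log2 units on slide 4 and -2.25 on slide 3 (PGCs) and at -2.66 to -2.50 on slide 2 and -1.63 to -1.44 on slide 1 (ES cells), called 1022 genes against 8205 in the knockdown (71.5% against 45.3% of calls higher), 8752 against 15447 in PGCs against control cells (13.3% against 57.2% higher) and 8418 against 15588 in PGCs against knockdown cells (11.9% against 58.8% higher). It turned the sign of Jun (-0.33, SE 0.51), Max (-0.11) and Spry1 (-0.37) in PGCs against control cells and of Egr2 (-0.75) in PGCs against knockdown cells. Normexp called 882, 6014 and 7192 genes in those comparisons, with 63.8% and 50.3% of calls higher in the first and second, and 0 and 5 members in the first and second. It was disturbed by 11 spots on knockdown replicate 1 and 2 on knockdown replicate 2 far below background. Under it Egr2 fell short of the threshold in the knockdown (-0.39, limma, adjusted p = 0.61) and in PGCs (-1.04), as did Junb (-0.62) and Dusp1 (-0.71) in PGCs. It reversed Fosb (0.50), Ier2 (-0.15), Atf3 (0.10), Fosl2 (0.29) and Ankrd1 (0.091) in the knockdown and Egr2 (-0.65) in PGCs against knockdown cells. Without those spots, a choice made after seeing the data, 2 members passed in the knockdown and Atf3 was 0.0052. In the knockdown 2 members also passed with a filter on all 9 arrays and with an intensity trend. With only both ES groups fitted 3 passed, with slide as a block 4, and on slide 1 alone 3, where Fosb was 0.49 and Atf3 0.055. In these fits 5834 to 9545 genes passed in all. Junb was -0.016 under quantile normalization. Numbers shared by groups did not pair them by the labels, and deviations of same-numbered arrays correlated at 0.37 and 0.39 between knockdown and control, as did knockdown replicate 4 with control replicate 3, which share slide 2 but no number (0.51), while the other knockdown and control pairs lay between -0.33 and -0.025. Between PGCs and control they lay at -0.03 to 0.02. With the replicate block, 4 members passed in the knockdown (Fosb 0.49, Atf3 0.055), with 7429 genes called, 14820 in PGCs against control cells and 13404 in PGCs against knockdown cells. Leaving out each array in turn gave 1 to 2 members and 6353 to 7123 genes called in the knockdown, the second member being Gadd45b without knockdown replicate 2 (-0.35, limma, adjusted p = 0.043). It gave 8 to 9 members and 14553 to 15113 genes in PGCs against control cells, the ninth being Jun, and 8 members and 14803 to 15213 genes in PGCs against knockdown cells. Differences that changed sign with an array left out had ranges, in the knockdown, of -0.71 to 0.34 for Fosb (0.34 without knockdown replicate 4), -0.090 to 0.15 for Junb, -0.055 to 0.14 for Ier2 and -0.25 to 0.28 for Atf3, and in PGCs against knockdown cells of -0.85 to 0.21 for Fosb. Signals near background limit Junb in PGCs.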
